A study of Homo sapiens with 20 samples.

Results

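Nucleolar ribosome assembly and rRNA processing factors are the proteins that turn the ribosomal precursor transcript into ribosomal subunits. The group is a list of 50 human genes, chosen by function with earlier results of these data known. Shares set beside those of all genes therefore describe these data and are not an independent test. Through a probe set (a block of oligonucleotides on the array) annotated with that gene alone, 43 of the 50 could be measured, out of 17860 genes measured in this way. For a gene with several such probe sets, the one with the highest mean over the 20 arrays stood for it. NOP56, DKC1, BOP1 and PPAN were represented only by probe sets that carry further symbols, and GNL3, DDX18 and EBNA1BP2 were not analysed here. Expression was read on Affymetrix HG-U133 Plus 2.0 arrays in derivatives of U937, a human myeloid leukemia line. The clones E10 and E14 (U937T_EVI1-HA) carry a tetracycline (tet) repressible cDNA of the transcription factor EVI1 with an HA tag, and were harvested 6, 12, 24 and 48 h after being moved to medium without tet or kept with tet. The control lines were clone P2 with the empty vector (U937T_vec) and parental U937T cells, both harvested only at 48 h, without and with tet. All lines carry the tet regulated system and were grown with tet and puromycin before the experiment, E10, E14 and P2 also with hygromycin. Every line, time and condition gave 1 array, so each group consisted of 2 lines, and EVI1 was expressed from a transgene in 2 selected clones. Values are log2 intensities, and a change is the log2 intensity without tet minus that with tet.

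Ribosome production starts in the nucleolus, where RNA polymerase I transcribes the rRNA precursor. Small nucleolar ribonucleoproteins (snoRNPs) of the box C/D and box H/ACA classes guide the methylation and pseudouridylation of that precursor, and the small subunit processome, built around the U3 snoRNP, folds and cuts it. Further factors then mature and export each subunit before leaving it. Growing leukemia cells use this machinery heavily, and many of its genes are textbook targets of the transcription factor MYC, which with its partner MAX binds the E-box CACGTG.

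EVI1 was induced as the labels say. The MECOM probe set with the highest mean, which reads the EVI1 transcript, was at 10.51 in E10 and 9.98 in E14 after 48 h without tet, against 7.13 and 7.15 with tet. In the control lines it was 5.91 without and 6.90 with tet in P2 and 6.53 without and 6.48 with tet in U937T. Its change in the EVI1 clones was 1.46 at 6 h (adjusted p = 0.11, limma) and 2.65 at 12 h (adjusted p = 4.3e-05). The EVI1-specific change of MECOM at 48 h was 3.57, and 1.75 with the mean of its probe sets. Of the myeloid markers, 11 of 12 were measured, 10 of them with a mean log2 intensity of at least 7, and their mean per array ran from 9.94 to 10.44. Of the markers of other cell types, 11 of 14 were measured, 2 of them at that level, and their mean per array ran from 5.32 to 5.75. After 48 h without tet the myeloid mean was 9.99 to 10.05 in the EVI1 clones and 10.07 to 10.18 in the control lines, and the mean of the other markers was 5.69 to 5.75 in the EVI1 clones and 5.59 to 5.61 in the control lines. In the EVI1-specific comparison, PRTN3 and ELANE of the myeloid markers were called lower and ITGB2 higher (limma). CD3E and PECAM1 of the other markers were called higher. PECAM1 was also called higher in the control lines alone at 48 h (0.59, adjusted p = 0.0086, limma), and CD3E was not (0.28). Whether PECAM1 is a myeloid signal in these cells was not tested. The part of such differences in the results was not tested either. The difference between the 3′ and 5′ probe sets of actin and GAPDH, which grows as RNA degrades, ran from 0.19 to 1.52 with a median of 0.71, and the 2 highest values were the E14 arrays at 24 h (1.40 without and 1.52 with tet). At 48 h it was 0.68 and 0.84 without tet and 0.66 and 0.74 with tet in E10 and E14, and 0.99 and 0.74 without tet and 0.84 and 1.06 with tet in P2 and U937T. The part of RNA integrity in the results below was not tested beyond the fits with this difference as a covariate or without the 12 and 24 h arrays of E14.

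After 48 h without tet, 42 of the 43 measured genes fell in the EVI1 clones and none rose (limma, adjusted p under 0.05 over all genes, against 14.7% of all genes called lower), and 30 of them fell at least 2-fold (2.91% of all genes). The median change was -1.32 in E10 and -1.28 in E14. In the control lines, where tet was withdrawn without EVI1, 33 of the same 43 genes fell and none rose (5.30% of all genes were called lower), with medians of -0.54 in P2 and -0.49 in U937T and none of the 43 falling 2-fold (0.0448% of all genes). Array values are normalized to 1 common distribution, so a fall of RNA shared by all genes would not be seen. The RNA is that of whole cultures, so fewer cells of a type and less RNA per cell cannot be told apart.

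The EVI1-specific change is the change of the EVI1 clones minus that of the control lines at 48 h. By this measure 25 of the 43 genes were lower and none higher (limma; 3.03% of all genes were called lower and 2.43% higher), 8 of them by at least 2-fold (0.683% of all genes). At an unadjusted p under 0.05, 38 were lower and none higher, against 8.84% of all genes lower and 8.99% higher. The median over the 43 genes was -0.75, beside -0.0036 over all genes tested. Both clones fell further than both control lines for 42 of the 43 genes, a pattern that 22.9% of all genes had. The exception was NOP10, whose change lay higher in both clones than in both control lines, as was the case for 22.8% of all genes.

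**Figure D1:**
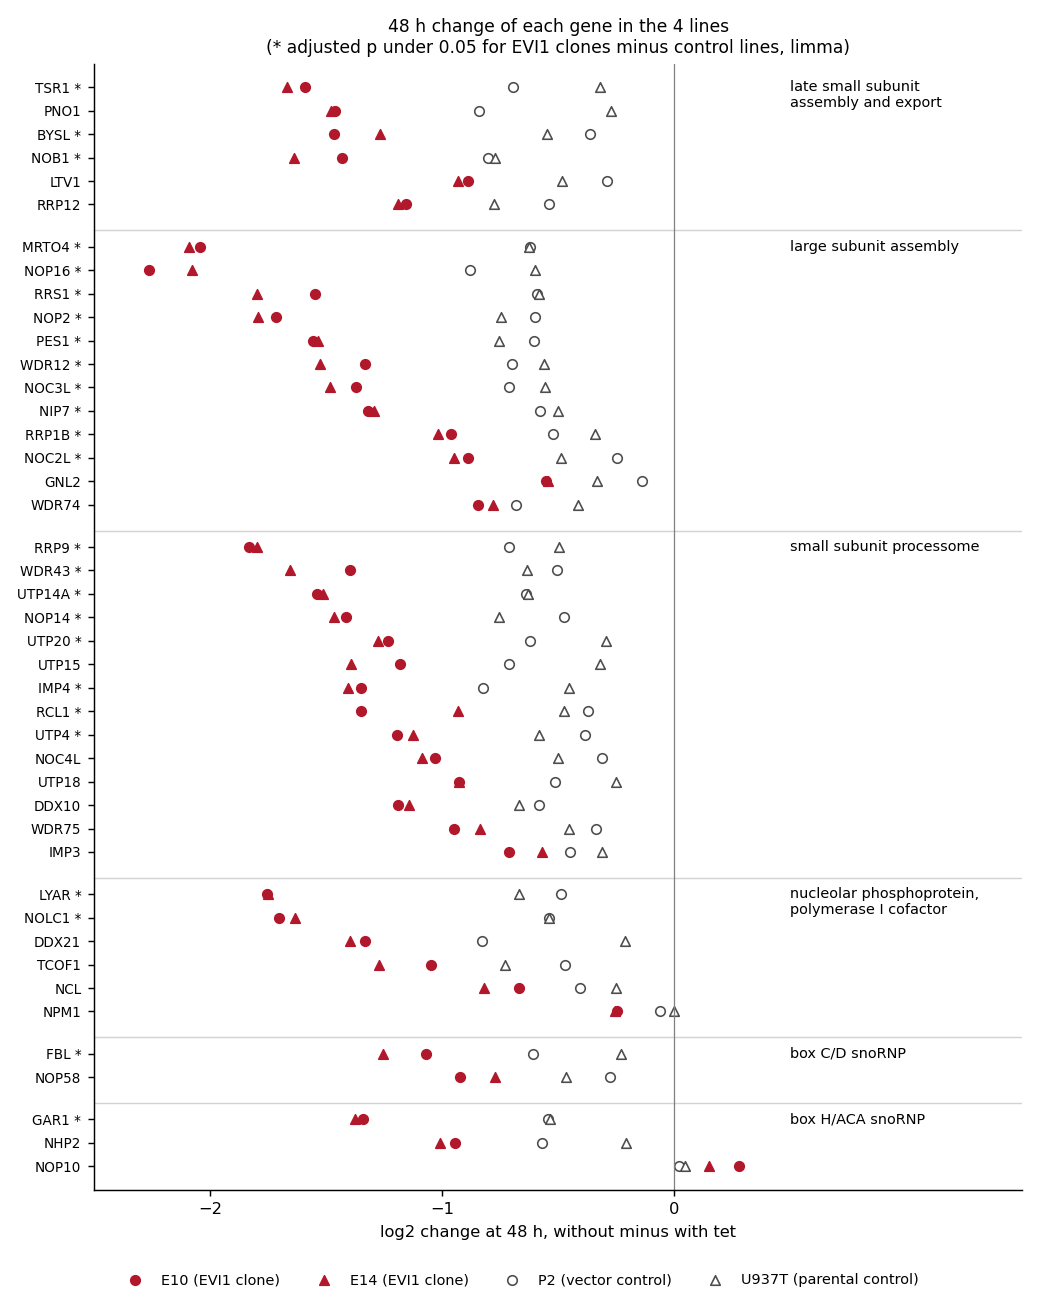
Log2 change after 48 h without tet (x axis, without minus with tet) of each of the 43 genes in the EVI1 clones E10 and E14 (filled) and in the control lines P2 and U937T (open), ordered by role, with an asterisk for genes called in the EVI1-specific comparison. The filled symbols lie left of the open ones for 42 genes and right of them for NOP10.

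The promoters of 4 genes with a large EVI1-specific fall and an E-box are printed here beside that of NOP10, the gene with the smallest EVI1-specific change, which also holds E-boxes. Each run is 250 bases of the RefSeq promoter table (GRCh38.p14), 5′ to 3′ on the strand of the gene, from 200 bases before the transcription start to 50 bases after it, and capitals mark CACGTG. The windows are chr1:19251605-19251854 (plus strand) for MRTO4, chr3:51941855-51942104 (minus strand) for RRP9, chr4:4289972-4290221 (minus strand) for LYAR, chr12:6568242-6568491 (minus strand) for NOP2 and chr15:34343087-34343336 (minus strand) for NOP10. Each spans the start site and so the first bases of the first exon.
MRTO4: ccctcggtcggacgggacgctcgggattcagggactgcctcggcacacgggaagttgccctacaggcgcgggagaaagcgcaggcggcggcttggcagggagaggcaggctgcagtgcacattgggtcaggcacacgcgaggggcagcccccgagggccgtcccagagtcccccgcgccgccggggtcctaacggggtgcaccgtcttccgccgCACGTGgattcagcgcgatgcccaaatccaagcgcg
RRP9: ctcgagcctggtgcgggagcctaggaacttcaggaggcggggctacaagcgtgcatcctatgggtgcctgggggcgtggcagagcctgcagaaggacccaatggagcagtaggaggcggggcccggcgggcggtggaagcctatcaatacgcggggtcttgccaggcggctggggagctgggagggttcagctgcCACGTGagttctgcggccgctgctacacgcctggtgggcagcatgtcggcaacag
LYAR: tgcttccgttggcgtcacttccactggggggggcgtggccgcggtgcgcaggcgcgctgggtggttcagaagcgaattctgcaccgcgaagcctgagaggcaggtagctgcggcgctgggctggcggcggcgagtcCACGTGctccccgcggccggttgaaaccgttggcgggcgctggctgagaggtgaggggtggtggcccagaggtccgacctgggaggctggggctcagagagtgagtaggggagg
NOP2: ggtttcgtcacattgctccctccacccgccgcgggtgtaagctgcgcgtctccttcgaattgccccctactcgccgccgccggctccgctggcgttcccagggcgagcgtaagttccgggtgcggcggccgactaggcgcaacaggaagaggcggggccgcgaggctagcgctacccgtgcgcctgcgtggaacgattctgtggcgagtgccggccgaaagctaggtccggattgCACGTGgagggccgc
NOP10: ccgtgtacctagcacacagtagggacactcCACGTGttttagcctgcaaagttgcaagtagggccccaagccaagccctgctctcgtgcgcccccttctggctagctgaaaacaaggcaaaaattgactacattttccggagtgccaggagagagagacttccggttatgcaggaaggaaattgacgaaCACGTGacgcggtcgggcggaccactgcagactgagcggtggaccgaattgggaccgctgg

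Counted with the first transcribed base as 1 and the base before it as -1, the E-box began at position 15 in MRTO4, -5 in RRP9, -64 in LYAR and 36 in NOP2. For LYAR the printed window is that of start site 2 in the promoter table, picked because it holds CACGTG, which start site 1 does not. GAR1 and DDX21 also hold CACGTG only at their start site 2. NOP10 held one at -11 and one at -170. Over the whole table window, which runs from 250 bases before to 50 after the start, 22 of the 37 measured genes with an entry held CACGTG, which reads the same on both strands, in at least 1 entry (59.5%), against 11.4% of all genes tested and 7.26% of all promoters of the table. NOP58, RRP1B, RRP12, RRS1, NOLC1 and TCOF1 had no entry. The share was 16 of 22 among the genes called lower in the EVI1-specific comparison (72.7%) and 6 of 15 among those not called (40.0%). Of other assembly factors 24 of 79 held it (30.4%), of the genes of RNA polymerase I and its factors 1 of 18, of the exosome 2 of 14 and of the cytosolic ribosomal proteins 3 of 47. NOP16, with an EVI1-specific change of -1.43, had no CACGTG in its window. The 25 E-boxes found lay between positions -241 and 36, with a median of 5, and 20 of them lay within 50 bases of the start. The letters AGATAA, of the kind bound by the first zinc finger domain of EVI1, were in 2 of the 37 windows, GAR1 and NOC3L (5.41%, against 9.74% of all genes tested), and GATGAG, of the kind bound by its second zinc finger domain, was in 1, NIP7 (2.70%, against 13.1%). CCGGAAG, the core bound by ETS factors, was in 14 (37.8%, against 17.6%). All were searched on both strands, and none of the 4 motifs contains another. A match describes the letters of the window, and no test was run on these shares.

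**Figure D2:**
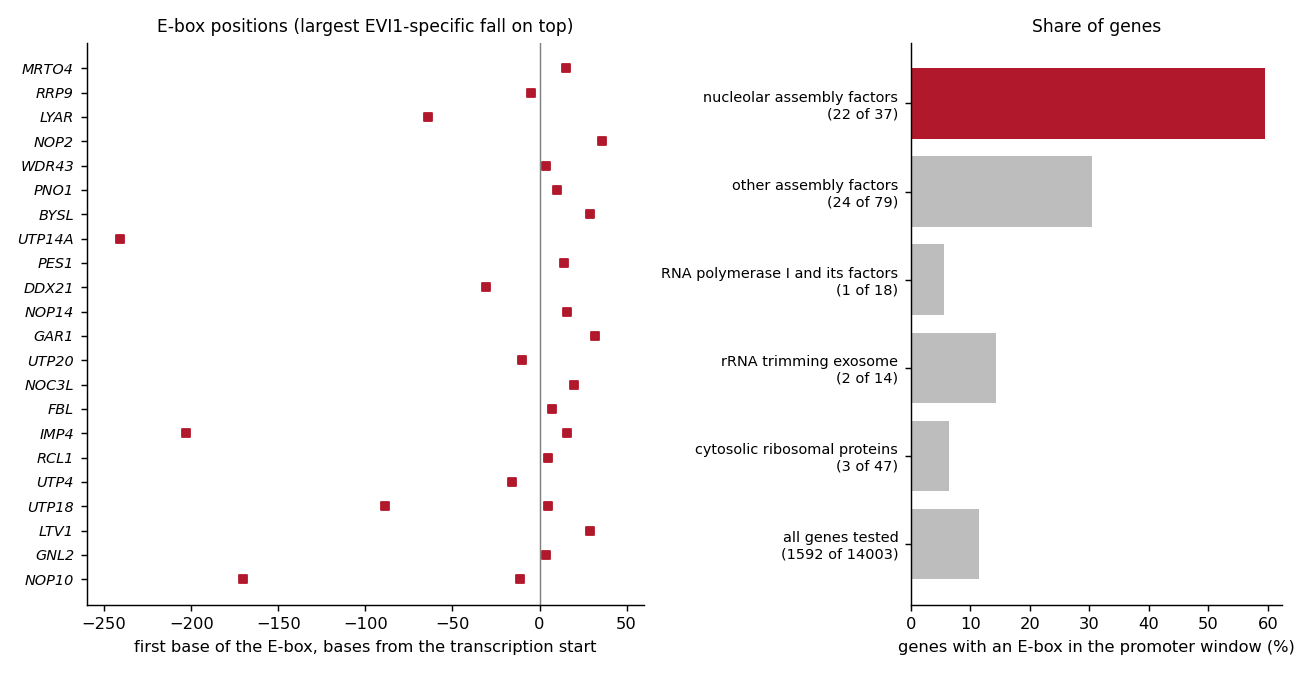
Left, first base of each CACGTG in the promoter windows of the 22 genes that hold one, in bases from the transcription start (x axis), with the largest EVI1-specific fall on top. Right, percentage of genes with CACGTG in the window, 59.5% in the nucleolar assembly factors, 30.4% in other assembly factors and 11.4% in all genes tested, with counts at each bar. Of the 25 sites, 20 lie within 50 bases of the start.

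Of the 5 measured snoRNP proteins, 2 were called lower in the EVI1-specific comparison (3.03% of all genes), FBL and GAR1. FBL, fibrillarin, the methyltransferase of the box C/D snoRNPs, and NOP58, a scaffold of the same particles, were the 2 measured members of that class. In E10, FBL read 12.34, 12.08, 12.03 and 11.10 without tet, against 12.26, 12.23, 12.30 and 12.17 with tet at 6, 12, 24 and 48 h. In E14, FBL read 12.12, 12.20, 11.70 and 10.87 without tet, against 12.26, 12.07, 12.07 and 12.12 with tet. At 48 h FBL read 11.40 without and 12.01 with tet in P2 and 11.71 without and 11.94 with tet in U937T. Both clones lay below their tet cultures at 24 and 48 h. For FBL the log2 change at 48 h was -1.16 in the EVI1 clones (adjusted p = 4.0e-06, limma) and -0.42 in the control lines (adjusted p = 0.040), an EVI1-specific change of -0.74 ± 0.17 (adjusted p = 0.020). Here and below the error after ± is the standard error of the fit, with 2 lines in each group. The NOP58 levels of E10 at 6, 12, 24 and 48 h were 12.12, 12.12, 11.48 and 11.15 without tet, against 11.95, 12.05, 12.11 and 12.08 with tet. Those of E14 for NOP58 were 12.06, 11.88, 11.54 and 11.37 without tet, against 11.92, 12.30, 12.30 and 12.14 with tet. For NOP58 the control lines had 11.84 without and 12.12 with tet in P2 and 11.76 without and 12.22 with tet in U937T after 48 h. NOP58 fell at 24 h (adjusted p = 0.00080, limma) and at 48 h (adjusted p = 5.5e-05), and FBL passed the test only at 48 h (adjusted p = 0.090 at 24 h). The EVI1-specific change of NOP58 was -0.48 ± 0.16 (adjusted p = 0.12, limma), which did not pass the test.

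GAR1, NHP2 and NOP10 are core proteins of the box H/ACA snoRNPs, which carry out pseudouridylation. In E10, GAR1 read 11.30, 11.22, 10.59 and 9.86 without tet, against 11.31, 11.26, 11.37 and 11.20 with tet at 6, 12, 24 and 48 h. In E14, GAR1 read 10.98, 11.10, 10.50 and 9.92 without tet, against 10.98, 11.23, 11.30 and 11.30 with tet. At 48 h GAR1 read 10.66 without and 11.21 with tet in P2 and 10.67 without and 11.20 with tet in U937T. All 4 arrays without tet at 24 and 48 h were lower than every array with tet. For GAR1 the log2 change at 48 h was -1.36 in the EVI1 clones (adjusted p = 4.3e-07, limma) and -0.54 in the control lines (adjusted p = 0.0067), an EVI1-specific change of -0.82 ± 0.16 (adjusted p = 0.0069). The NHP2 levels of E10 at 6, 12, 24 and 48 h were 12.78, 12.46, 12.31 and 11.47 without tet, against 12.92, 12.63, 12.54 and 12.41 with tet. Those of E14 for NHP2 were 12.40, 12.66, 11.98 and 11.35 without tet, against 12.66, 12.37, 12.35 and 12.36 with tet. For NHP2 the control lines had 11.83 without and 12.40 with tet in P2 and 12.04 without and 12.25 with tet in U937T after 48 h. NHP2 was lower without tet in all 4 lines at 48 h. Its EVI1-specific change of -0.59 ± 0.18 missed the threshold (adjusted p = 0.088, limma). NOP10 stood in E10 at 12.63, 12.36, 12.55 and 12.55 without tet, against 12.48, 12.51, 12.50 and 12.28 with tet over the same 4 times. NOP10 stood in E14 at 12.47, 12.54, 12.46 and 12.52 without tet, against 12.59, 12.38, 12.36 and 12.38 with tet. NOP10 in the control lines was 12.33 without and 12.31 with tet in P2 and 12.31 without and 12.26 with tet in U937T at 48 h. NOP10 stayed within 12.26 to 12.63 on all 20 arrays, and no comparison of the time course or of the lines called it. Its EVI1-specific change was 0.18 ± 0.14 (adjusted p = 0.59, limma).

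Among the nucleolar phosphoproteins and cofactors of RNA polymerase I, 2 of 6 were called lower in the EVI1-specific comparison (3.03% of all genes), LYAR and NOLC1. LYAR is a nucleolar zinc finger protein of growing cells. In E10, LYAR read 11.47, 11.55, 10.55 and 9.80 without tet, against 11.32, 11.54, 11.67 and 11.55 with tet at 6, 12, 24 and 48 h. In E14, LYAR read 10.96, 11.07, 10.12 and 9.89 without tet, against 10.90, 11.28, 11.23 and 11.64 with tet. At 48 h LYAR read 11.07 without and 11.56 with tet in P2 and 10.998 without and 11.67 with tet in U937T. Without tet, E10 and E14 had nearly the same level at 48 h. For LYAR the log2 change at 48 h was -1.75 in the EVI1 clones (adjusted p = 6.9e-07, limma) and -0.58 in the control lines (adjusted p = 0.024), an EVI1-specific change of -1.17 ± 0.21 (adjusted p = 0.0050). NOLC1 (Nopp140) is a chaperone of snoRNPs. The NOLC1 levels of E10 at 6, 12, 24 and 48 h were 12.31, 12.23, 11.37 and 10.68 without tet, against 12.30, 12.35, 12.38 and 12.38 with tet. Those of E14 for NOLC1 were 12.12, 12.22, 11.37 and 10.73 without tet, against 12.20, 12.38, 12.45 and 12.36 with tet. For NOLC1 the control lines had 11.77 without and 12.31 with tet in P2 and 11.85 without and 12.39 with tet in U937T after 48 h. The fall of NOLC1 was present in both clones at 24 h and went further at 48 h. For NOLC1 the log2 change at 48 h was -1.67 in the EVI1 clones (adjusted p = 1.0e-08, limma) and -0.54 in the control lines (adjusted p = 0.0017), an EVI1-specific change of -1.13 ± 0.13 (adjusted p = 0.00016). NPM1, nucleophosmin, an abundant nucleolar chaperone, had the smallest change of this class. NPM1 stood in E10 at 13.72, 13.76, 13.66 and 13.42 without tet, against 13.71, 13.65, 13.74 and 13.67 with tet over the same 4 times. NPM1 stood in E14 at 13.63, 13.65, 13.51 and 13.46 without tet, against 13.60, 13.67, 13.69 and 13.71 with tet. NPM1 in the control lines was 13.64 without and 13.71 with tet in P2 and 13.67 without and 13.67 with tet in U937T at 48 h. All 20 values of this probe set lay between 13.42 and 13.76, near the top of the scale, where the highest value of any probe set was 14.49. The EVI1-specific change of NPM1 was -0.22 ± 0.12 (adjusted p = 0.39, limma), and 2 further NPM1 probe sets with lower means of 12.9 and 12.4 gave -0.43 and -0.48. The other 3 members were the RNA helicase DDX21 (-0.85), treacle, encoded by TCOF1 (-0.56), and nucleolin, encoded by NCL (-0.42). None of these passed the test, though DDX21 had an adjusted p of 0.0501 from limma.

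The small subunit processome had 14 measured members, with a class median of -0.73. Of these, 8 were called lower in the EVI1-specific comparison (3.03% of all genes). RRP9 is the protein specific to the U3 snoRNP. The RRP9 levels of E10 at 6, 12, 24 and 48 h were 9.20, 9.40, 8.11 and 7.21 without tet, against 9.20, 9.56, 9.47 and 9.04 with tet. Those of E14 for RRP9 were 9.14, 9.39, 8.33 and 7.29 without tet, against 9.16, 9.67, 9.61 and 9.09 with tet. For RRP9 the control lines had 8.34 without and 9.05 with tet in P2 and 8.41 without and 8.90 with tet in U937T after 48 h. The arrays without tet at 24 and 48 h lay below all others of the clones. For RRP9 the log2 change at 48 h was -1.82 in the EVI1 clones (adjusted p = 9.9e-09, limma) and -0.60 in the control lines (adjusted p = 0.0014), an EVI1-specific change of -1.21 ± 0.14 (adjusted p = 0.00017). WDR43 belongs to the subcomplex that joins the nascent precursor first. In E10, WDR43 read 8.95, 9.34, 8.27 and 7.65 without tet, against 8.78, 9.17, 9.31 and 9.04 with tet at 6, 12, 24 and 48 h. In E14, WDR43 read 9.27, 8.97, 8.32 and 7.81 without tet, against 8.90, 9.48, 9.65 and 9.47 with tet. At 48 h WDR43 read 8.88 without and 9.38 with tet in P2 and 8.81 without and 9.44 with tet in U937T. Both clones were lower without tet at 24 and 48 h, and so were P2 and U937T at 48 h. For WDR43 the log2 change at 48 h was -1.53 in the EVI1 clones (adjusted p = 2.6e-06, limma) and -0.57 in the control lines (adjusted p = 0.028), an EVI1-specific change of -0.96 ± 0.21 (adjusted p = 0.017). IMP3, an RNA-binding protein of the U3 particle, had the smallest EVI1-specific change of this class. IMP3 stood in E10 at 10.64, 10.36, 9.96 and 9.77 without tet, against 10.58, 10.57, 10.58 and 10.48 with tet over the same 4 times. IMP3 stood in E14 at 10.45, 10.37, 9.83 and 9.83 without tet, against 10.60, 10.57, 10.58 and 10.40 with tet. IMP3 in the control lines was 9.87 without and 10.32 with tet in P2 and 10.004 without and 10.32 with tet in U937T at 48 h. IMP3 fell in the clones at 48 h (adjusted p = 8.0e-05, limma) and in the control lines (adjusted p = 0.016). Its EVI1-specific change of -0.26 ± 0.13 did not pass the test (adjusted p = 0.32, limma).

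The other processome members called lower were UTP14A (-0.89), NOP14 (-0.83), UTP20 (-0.80), IMP4 (-0.74), RCL1 (-0.72) and UTP4 (-0.68), with the EVI1-specific log2 change in brackets. Those not called were UTP15 (-0.77), NOC4L (-0.65), UTP18 (-0.55), DDX10 (-0.54) and WDR75 (-0.50). In the EVI1 clones alone all 14 fell at 48 h, 11 of them at least 2-fold (14.7% and 2.91% of all genes), and in the control lines 12 of 14 fell (5.30%), none of them 2-fold (0.0448%).

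Late assembly and export of the small subunit was represented by 6 genes. Of these, 3 were called lower in the EVI1-specific comparison (3.03% of all genes). TSR1 is a GTPase-like protein that occupies the immature small subunit in the cytoplasm. In E10, TSR1 read 10.60, 10.21, 9.72 and 8.65 without tet, against 10.75, 10.53, 10.53 and 10.24 with tet at 6, 12, 24 and 48 h. In E14, TSR1 read 10.16, 10.49, 9.25 and 8.58 without tet, against 10.42, 10.31, 10.24 and 10.25 with tet. At 48 h TSR1 read 9.38 without and 10.08 with tet in P2 and 9.61 without and 9.93 with tet in U937T. The lowest TSR1 levels were those of E10 and E14 at 48 h without tet. For TSR1 the log2 change at 48 h was -1.63 in the EVI1 clones (adjusted p = 2.0e-06, limma) and -0.51 in the control lines (adjusted p = 0.054), an EVI1-specific change of -1.12 ± 0.22 (adjusted p = 0.0084). The mean of all TSR1 probe sets gave a smaller EVI1-specific change, -0.72. Of its other probe sets, those with means of 8.94 and 6.36 gave -0.97 and -0.75, and one with a mean of 8.68 gave -0.03. PNO1 is a partner of the endonuclease NOB1, which makes the final cut of the small subunit rRNA. The PNO1 levels of E10 at 6, 12, 24 and 48 h were 10.55, 9.74, 8.97 and 8.31 without tet, against 10.92, 10.05, 9.74 and 9.77 with tet. Those of E14 for PNO1 were 9.48, 10.27, 8.13 and 8.11 without tet, against 10.08, 9.56, 9.19 and 9.59 with tet. For PNO1 the control lines had 8.68 without and 9.52 with tet in P2 and 9.09 without and 9.36 with tet in U937T after 48 h. PNO1 also varied among cultures with tet, and at 12 h it was higher without tet in E14 and lower in E10. Its EVI1-specific change of -0.91 had a standard error of 0.40 and did not pass the test (adjusted p = 0.24, limma). RRP12 has a yeast counterpart that takes part in the export of both subunits. RRP12 stood in E10 at 10.15, 10.28, 9.14 and 8.999 without tet, against 10.06, 10.55, 10.30 and 10.16 with tet over the same 4 times. RRP12 stood in E14 at 10.26, 10.21, 9.33 and 8.97 without tet, against 10.18, 10.68, 10.61 and 10.16 with tet. RRP12 in the control lines was 9.62 without and 10.15 with tet in P2 and 9.42 without and 10.19 with tet in U937T at 48 h. RRP12 was lower without tet in both clones at 12 h already (change -0.37, adjusted p = 0.49, limma), which did not pass the test. It fell by about the same amount at 24 h (-1.22) and 48 h (-1.17), and its EVI1-specific change was -0.52 ± 0.15 (adjusted p = 0.059, limma). Bystin, encoded by BYSL (-0.91), and NOB1 (-0.75) were called lower, and LTV1 (-0.53) was not.

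Of the 12 measured large subunit factors, 10 were called lower in the EVI1-specific comparison (3.03% of all genes), with a class median of -0.80. MRTO4 is related to the stalk protein of the ribosome and holds its place on the immature large subunit. The MRTO4 levels of E10 at 6, 12, 24 and 48 h were 11.60, 11.66, 10.43 and 9.55 without tet, against 11.54, 11.58, 11.38 and 11.59 with tet. Those of E14 for MRTO4 were 11.25, 11.24, 10.18 and 9.43 without tet, against 11.17, 11.35, 11.25 and 11.52 with tet. For MRTO4 the control lines had 10.66 without and 11.28 with tet in P2 and 10.58 without and 11.21 with tet in U937T after 48 h. Up to 12 h the cultures without tet lay close to those with tet, and at 48 h both clones without tet were below every other array. For MRTO4 the log2 change at 48 h was -2.07 in the EVI1 clones (adjusted p = 5.2e-09, limma) and -0.62 in the control lines (adjusted p = 0.0016), an EVI1-specific change of -1.44 ± 0.14 (adjusted p = 6.4e-05). A second MRTO4 probe set with a lower mean of 8.79 gave an EVI1-specific change of -1.31. NOP16 is a nucleolar protein of the early large subunit. In E10, NOP16 read 12.07, 12.03, 10.71 and 9.69 without tet, against 11.96, 12.25, 12.12 and 11.96 with tet at 6, 12, 24 and 48 h. In E14, NOP16 read 11.92, 12.10, 10.78 and 9.92 without tet, against 11.92, 12.23, 12.12 and 12.003 with tet. At 48 h NOP16 read 11.18 without and 12.06 with tet in P2 and 11.29 without and 11.89 with tet in U937T. Its fall was the largest of all 43 genes in the EVI1 clones at 48 h. For NOP16 the log2 change at 48 h was -2.17 in the EVI1 clones (adjusted p = 3.8e-09, limma) and -0.74 in the control lines (adjusted p = 0.00054), an EVI1-specific change of -1.43 ± 0.15 (adjusted p = 7.7e-05). Of its other probe sets, one with a mean of 10.3 gave an EVI1-specific change of -1.53 and those with means of 5.23 and 5.38 gave 0.09 and 0.06, and the mean of its probe sets gave -0.70. WDR74, whose yeast counterpart acts on the same early particles, had the smallest EVI1-specific change of the large subunit factors. WDR74 stood in E10 at 9.997, 9.95, 9.22 and 8.82 without tet, against 9.85, 10.04, 10.19 and 9.67 with tet over the same 4 times. WDR74 stood in E14 at 10.08, 9.88, 9.24 and 9.14 without tet, against 9.86, 10.10, 10.18 and 9.92 with tet. WDR74 in the control lines was 9.23 without and 9.91 with tet in P2 and 9.41 without and 9.82 with tet in U937T at 48 h. WDR74 was lower without tet in all 4 lines at 48 h. For the EVI1-specific change of WDR74 the value was -0.27 ± 0.15 (adjusted p = 0.42, limma), while a second probe set with a mean of 9.27 gave -0.99 and another, with a mean of 5.11, gave 0.11.

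The other large subunit factors called lower were the rRNA methyltransferase NOP2 (-1.08), RRS1 (-1.08), which takes part in placing the smallest rRNA, PES1 (-0.87) and WDR12 (-0.80) of the PeBoW complex, NOC3L (-0.79), NIP7 (-0.77), RRP1B (-0.56) and NOC2L (-0.55). The GTPase GNL2 (-0.31) was not called. Among all 17860 genes ordered by EVI1-specific change from the lowest, MRTO4 held place 31, NOP16 place 32, RRP9 place 68 and LYAR place 72.

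**Figure D3:**
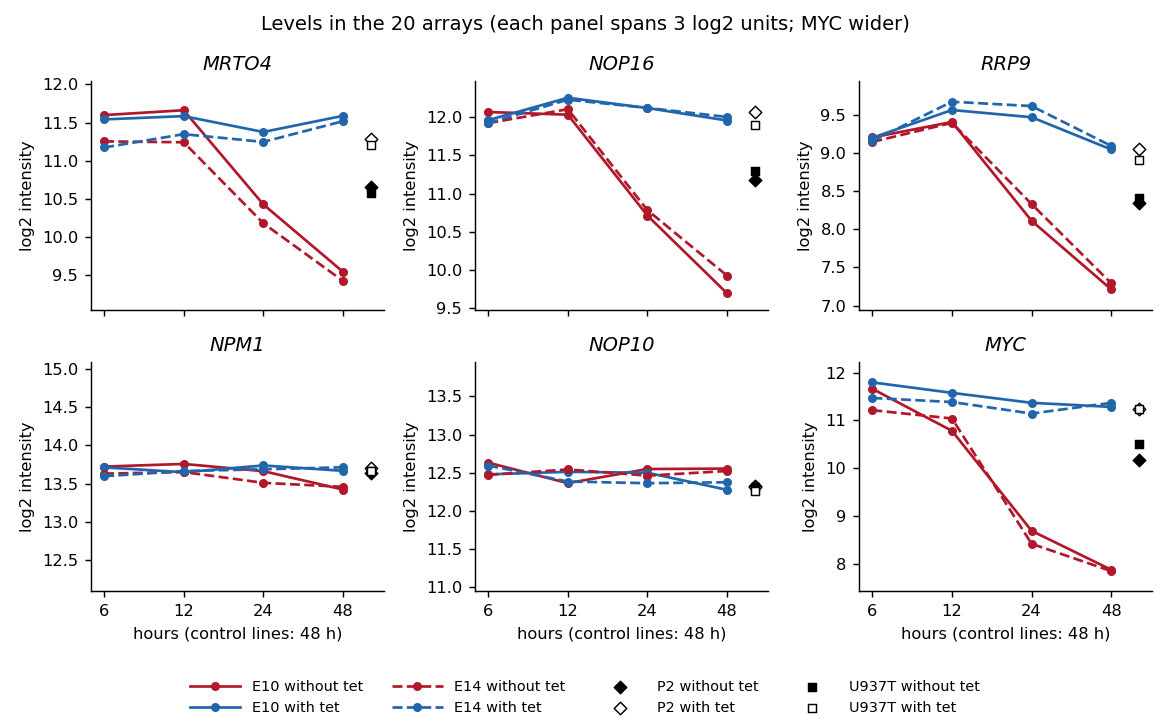
Log2 intensity (y axis) of MRTO4, NOP16, RRP9, NPM1, NOP10 and MYC at 6 to 48 h (x axis) in E10 (solid) and E14 (dashed), without tet (red) and with tet (blue), with the 48 h values of P2 (diamonds) and U937T (squares) at the right, filled without tet and open with tet. The red lines leave the blue ones between 12 and 24 h for MRTO4, NOP16 and RRP9, while NOP10 stays between 12.26 and 12.63.

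By the medians, the largest step of the fall lay between 12 and 24 h. At 12 h, 36 of the 43 genes already lay below 0, beside 9280 of all 17860 genes. At 6 h after tet withdrawal none of the 43 genes was called in either direction (limma; none at an unadjusted p under 0.05, where 1.74% of all genes were lower and 1.55% higher), and 0% of all genes were called. At 12 h again none was called (0.0112% of all genes were called lower), with 8 lower and none higher at an unadjusted p under 0.05 (3.80% and 2.55% of all genes), and medians of -0.10 in E10 and -0.20 in E14. At 24 h, 39 of the 43 fell and none rose (9.16% of all genes were called lower and 7.97% higher), 15 of them at least 2-fold (0.980% of all genes). The exceptions at 24 h were FBL (-0.32), NHP2 (-0.30), NPM1 (-0.13) and NOP10 (0.07). The order of genes was not the same at 24 h as at 48 h: the largest changes at 24 h were those of NOP16 (-1.37), RRS1 (-1.37) and RRP9 (-1.32), and those at 48 h were NOP16 (-2.17), MRTO4 (-2.07) and RRP9 (-1.82).

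Between 24 and 48 h the response itself deepened for 5 genes, tested as the difference of the changes (1.63% of all genes were called lower and 2.07% higher). These were MRTO4 (-1.06, adjusted p = 0.0011, limma), FBL (-0.84, adjusted p = 0.014), NOP16 (-0.80, adjusted p = 0.0078), NOLC1 (-0.62, adjusted p = 0.014) and NOP2 (-0.60, adjusted p = 0.023). None became weaker by the test, and the median over the 43 genes was -0.36. This count was 1 without the 12 and 24 h arrays of E14 (0.235% of all genes) and ran from 0 to 5 when 1 line was left out, where 0.0056% to 1.68% of all genes were called lower.

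Cultures kept with tet gave the level that the changes refer to. From 6 to 48 h with tet, none of the 43 genes was called lower (4.07% of all genes were) and 1 was called higher (3.10%), at a median of -0.05, with 6 lower and 6 higher at an unadjusted p under 0.05. Of all genes 13.1% were lower and 9.12% higher at that threshold, so the count of lower members lay near the background. The gene called higher was TCOF1, at 9.29 and 9.33 in E10 and E14 at 48 h with tet, against 8.41 and 8.63 at 6 h (0.80, adjusted p = 0.0085, limma). In the cultures without tet, 41 of the 43 were lower at 48 h than at 6 h (17.2% of all genes), with a median of -1.37. The remaining 2 were NPM1 (-0.24) and NOP10 (-0.01). The control lines have no earlier time, so when their smaller fall began was not measured.

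**Figure D4:**
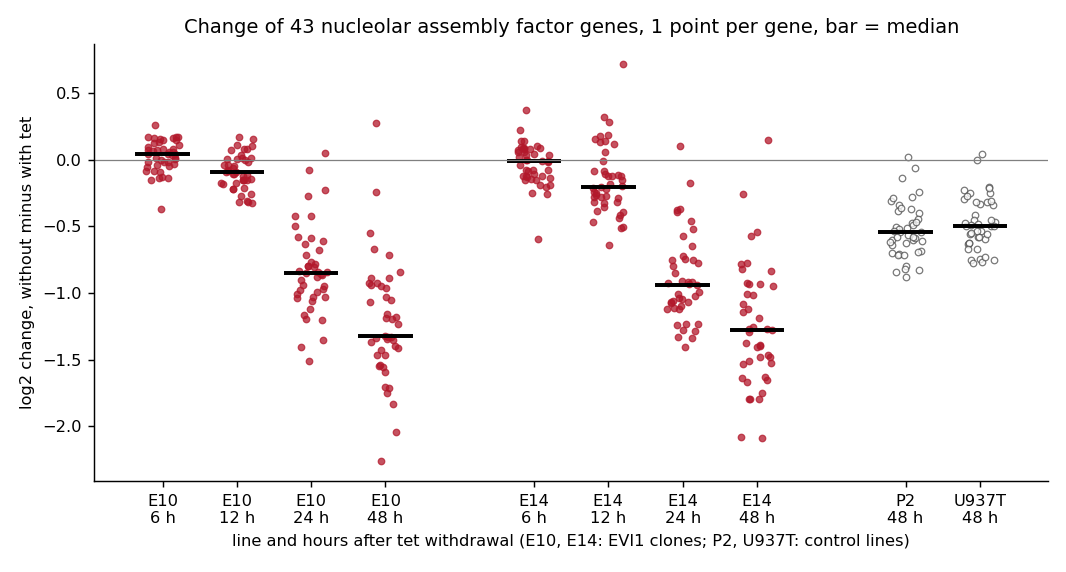
Log2 change without minus with tet (y axis) of the 43 genes, 1 point a gene, in each line and at each time (x axis), with the median as a bar. The medians in E10 and E14 are -0.85 and -0.94 at 24 h and -1.32 and -1.28 at 48 h, and those in P2 and U937T at 48 h are -0.54 and -0.49.

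Neighbouring parts of ribosome production are set beside these genes at 48 h. Of 92 other assembly factors of both subunits, 29 were called lower and none higher in the EVI1-specific comparison (limma, median -0.40, against 3.03% of all genes lower and 2.43% higher). WDR3, a processome protein, had an EVI1-specific change of -1.28, NLE1, which acts on the large subunit, -1.28, and RRP15, also of the large subunit, -0.92. With the mean of its probe sets, the value of WDR3 was -0.62. Of 20 genes of RNA polymerase I and its factors, 4 were called lower and none higher (median -0.22), among them the polymerase subunits POLR1E (-1.02), POLR1G (-0.997) and POLR1B (-0.82). POLR1E gave -0.31 with the probe set of largest spread and -0.78 with the mean of its probe sets, and neither value was called. POLR1B gave -0.47 with the mean of its probe sets and -0.74 without P2, where it was not called either. The exosome, which trims rRNA ends, had 1 of 17 genes called lower and none higher, EXOSC5 (-0.99), with a median of -0.22. In the EVI1 clones alone at 48 h, 13 of the 20 polymerase I genes and 9 of the 17 exosome genes fell (14.7% of all genes).

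The 53 measured cytosolic ribosomal protein genes had none called in either direction in the EVI1-specific comparison (limma; 1 lower and 1 higher at an unadjusted p under 0.05), with a median of -0.04. Their levels were near the top of the scale, with a median gene mean of 13.7, and whether signal limits their changes was not tested. MYC had 11.66, 10.78, 8.69 and 7.87 without tet, against 11.80, 11.58, 11.37 and 11.28 with tet in E10 at 6, 12, 24 and 48 h. In E14, MYC had 11.21, 11.04, 8.41 and 7.84 without tet, against 11.47, 11.38, 11.14 and 11.37 with tet. The control lines had MYC at 10.16 without and 11.24 with tet in P2 and 10.50 without and 11.24 with tet in U937T at 48 h. MYC was lower without tet in all 4 lines at 48 h, and its change in the EVI1 clones was -0.57 at 12 h (adjusted p = 0.44, limma) and -2.71 at 24 h (adjusted p = 1.1e-07). Among 10 measured genes of MYC, its relatives and its dimer partners, MYC alone was called lower in the EVI1-specific comparison. None of the 10 was called higher there (of all genes, 3.03% were lower and 2.43% higher). The EVI1 clones alone gave 4 lower and 2 higher at 24 h (1636 and 1423 of 17860 genes). At 48 h the clones gave 1 lower and 4 higher (2623 and 2854), and the control lines 1 lower and 2 higher (946 and 966). The part of MYC in the changes of the assembly factors was not tested.

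**Figure D5:**
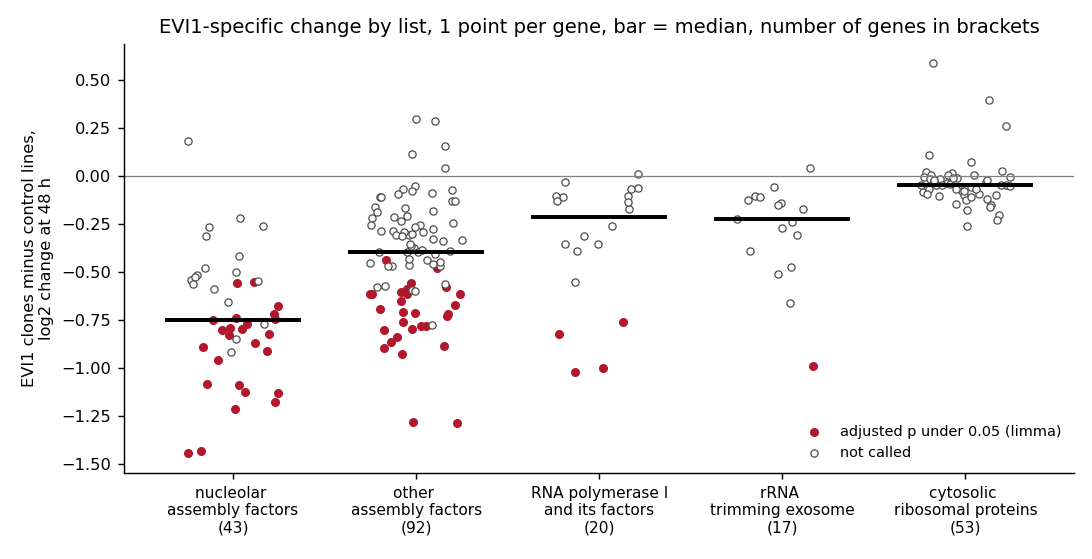
EVI1-specific log2 change at 48 h (y axis, EVI1 clones minus control lines) of each gene in 5 lists (x axis, number of genes in brackets), filled where called by limma, with the median as a bar. The medians run from -0.75 in the nucleolar assembly factors through -0.40 in other assembly factors to -0.04 in cytosolic ribosomal proteins.

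The 43 genes have 81 probe sets, of which 80 passed the intensity filter. Among the 37 that did not stand for their gene, 27 were lower in both clones than in both control lines, as were 21.7% of all such probe sets of the array. They were 18 of the 21 with a mean log2 intensity of at least 7 (median -0.75, against 28.3% of all such probe sets) and 9 of the 16 below it (median -0.29, against 18.6%). A further 10 probe sets name a listed gene together with other symbols, 8 of them for genes with no probe set of their own, and 9 of the 10 were lower in both clones than in both control lines (26.0% of all probe sets with several symbols), with EVI1-specific changes from -1.29 to 0.15 and a median of -0.72.

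Most of the 8 residual degrees of freedom of the fit come from the time course of the clones, and the block removes constant differences between lines. The p-values thus measure how differently E10 and E14 moved across times and conditions, more than how differently the control lines did. Each group holds 2 lines. Without P2 the EVI1-specific count was 17 of 43 (1.90% of all genes) and without U937T 14 (1.47%), while the count in the control lines was 13 without P2 (1.63%) and 15 without U937T (1.88%). The shares of all genes called thus fell as well, against 3.03% and 5.30% with all lines. Of the genes described in full, WDR43 lost its EVI1-specific call without P2 (adjusted p = 0.085, limma) and without U937T (0.068), with a range of 0.0056 to 0.30 over all alternatives. FBL (0.19, range 0.0030 to 0.56) and TSR1 (0.094, range 0.0014 to 0.16) lost it without U937T. Leaving out E10 or E14 leaves 1 residual degree of freedom, and then 1 gene (MRTO4) or 2 genes (NOP16 and MRTO4) passed in the EVI1-specific comparison (0.319% of all genes without E10 and 0.196% without E14), 10 in the control lines in either case (1.09%), and 27 without E10 (1.72%) or 16 without E14 (1.09%) at 24 h. Without the 12 and 24 h arrays of E14, the genes called lower were 30 at 24 h (2.78% of all genes), 24 in the control lines (3.61%) and 21 in the EVI1-specific comparison (1.99%). With the probe set of largest spread standing for each gene, the EVI1-specific change of MRTO4 was -1.31 (adjusted p = 0.37, limma), while in all other alternatives its adjusted p was at most 0.048 and its change between -1.51 and -1.38.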

How the data were processed

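Total RNA of 20 cultures was hybridized to Affymetrix HG-U133 Plus 2.0 arrays. The deposited values are log2 intensities, which the authors made with Robust Multi-array Analysis (background correction, quantile normalization, summarization). They were used as they are: 54675 probe sets without missing values, array medians 5.25 to 5.35. Symbols came from the platform annotation, where 41097 probe sets carry 1 symbol. As in the study's filter, a mean of at least 3 was required in each clone at 24 h and in every line at 48 h, which 35610 probe sets passed. The highest mean chose 1 per gene (17860 genes). limma 3.58.1 (R 4.3.3) fitted 10 groups with line as a fixed block (8 residual and 5.74 prior degrees of freedom), and p-values were adjusted by Benjamini and Hochberg over all genes, called under 0.05. Errors are standard errors. Simulated data had independent noise and no line, time or tet effects other than the changes put in. There, 66 of 100 EVI1-specific changes of 1 log2 unit and 6 of 100 of 0.5 were called. Of the 17860 genes run, those left unchanged gave 4 false calls. The real data hold more changed genes, so these figures need not carry over to them. The members and lists were chosen with earlier results of these data known. Named genes are, per role, the 2 members with the largest and the 1 with the smallest EVI1-specific change, up to 3 called genes of each other list, MECOM and MYC. The alternatives varied the filter, the probe set, centring, the variance model, the block, the arrays, an RNA integrity covariate and each line. Promoters were searched in Python 3.11.15. The number of arrays limits precision.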

Additional observations from a re-analysis of the deposited data

Results flagged for a closer look

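The changes at 48 h were tested for a difference between the EVI1 clones and the control lines (limma). This called 25 of the 43 nucleolar assembly factors, all lower in the clones (3.03% of all genes were called lower). Among those described in full, the log2 differences of the changes were MRTO4 (-1.44), NOP16 (-1.43), RRP9 (-1.21), LYAR (-1.17), NOLC1 (-1.13), TSR1 (-1.12), WDR43 (-0.96), GAR1 (-0.82) and FBL (-0.74). Outside the group the same test called WDR3 (-1.28), NLE1 (-1.28), RRP15 (-0.92), POLR1E (-1.02), POLR1G (-0.997), EXOSC5 (-0.99), POLR1B (-0.82) and MYC (-2.56) as lower, and MECOM (3.57), the induced transcript, as higher. Among probe sets with several symbols, which enter no comparison above, 9 of 10 that name a listed gene were lower in both clones than in both control lines, against 26.0% of all probe sets with several symbols. Groups of 2 arrays are too small to look for a sample far from the others.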

How the results depend on the processing

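Directions held where a value was called, as no value turned its sign when called. No alternative called any of the 43 genes higher at 24 or 48 h without against with tet or in the EVI1-specific comparison. The median of the 43 genes at 6 h did change sign, from -0.0047 to 0.0105 with the 3′ to 5′ covariate. The EVI1-specific count of 25 was 22 without the line in the model (no replicate block), where the control lines gave 28 (4.61% of all genes). It was 25 with no intensity filter, 32 with a mean of at least 5, 19 with the probe set of largest SD and 24 with the mean of the probe sets. It was 30 after centring, 36 with intensity trend and robust estimation, 26 from the differences and 32 with the 3′ to 5′ covariate. With only the 48 h arrays it was 13, and the control lines gave 21 (1.81%). Over these alternatives 1.09% to 4.85% of all genes were called lower in the EVI1-specific comparison. Over all genes the centred fit called 659 lower and 344 higher, against 541 and 434. For 24 to 48 h the count was 10 with a mean of at least 5 (3.01% of all genes) and 1 with the probe set of largest SD (0.75%). It was 13 with trend and robust estimation (2.44%) and 10 with the covariate (2.27%). From 6 to 48 h with tet, trend and robust estimation called 1 lower (5.3% of all genes) and 2 higher (679 of 17860 genes). The mean of at least 5, the largest SD and the mean of the probe sets called 2 higher, beside 694 of 12944, 650 of 17860 and 436 of 17860 genes. The median of the EVI1 clones was -0.80 at 24 h and -1.17 at 48 h with the mean of the probe sets, -1.36 at 48 h with the largest SD and also after centring, and -0.85 at 24 h without the E14 arrays at 12 and 24 h. The mean of the probe sets gave -0.45 in the control lines and -1.19 from 6 to 48 h without tet, and centring gave -0.81 for the EVI1-specific median. Why these values moved was not tested.

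With 1 line left out, the counts of lower genes ran from 16 to 39 (24 h), 38 to 42 (48 h), 10 to 15 (control lines), 1 to 17 (EVI1-specific), 0 to 5 (24 to 48 h) and 36 to 41 (6 to 48 h without tet), and were 0 at 6 and 12 h and with tet, where 0 to 1 were higher. Of all genes, 0.196% to 1.90% were then called lower in the EVI1-specific comparison. Medians ran from -0.014 to 0.042 (6 h), -0.20 to -0.10 (12 h), -0.94 to -0.85 (24 h), -1.32 to -1.28 (48 h), -0.54 to -0.49 (control lines), -0.81 to -0.69 (EVI1-specific), -0.38 to -0.36 (24 to 48 h), -0.11 to 0.07 (with tet) and -1.44 to -1.19 (without tet). Leaving out a line leaves 1 array a condition in its group, whose spread is taken from the other groups. The number of arrays limits precision, and whether signal near the top of the scale limits NPM1 and the ribosomal proteins was not tested.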
